A study of Danio rerio with 6 samples.

Results

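Potassium channel genes were followed in cells sorted by a fluorescent thrb reporter from the eyes of larval zebrafish (Danio rerio). The genes were the rows whose symbol begins with kcn or hcn and later holds a digit, and whose level reached 10 normalized counts (reads divided by a size factor per library) in 3 or more of 6 libraries. These were 14 of the 9886 genes that passed the same filter on level, out of 14781 genes listed. The symbol pattern alone was met by 59 rows, of which 27 were at 0 in every library and 18 had reads but stayed under the filter. No row with an hcn symbol was among them, so the HCN channels, which carry the hyperpolarization-activated current of photoreceptors, were not analysed here.

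The libraries of interest came from larvae labelled samd7-/-, bred from parents that were both homozygous for the stl888 allele of samd7, and the comparison libraries from wild-type (WT) larvae of WT parents. In every cross 1 parent carried 1 copy of thrb:tdTomato, a red fluorescent reporter named for the thyroid hormone receptor gene that red cones express, and all libraries were made from fluorescent cells sorted from eyes at 5 days post-fertilization. Each of the 3 libraries per genotype pooled 40 to 50 eyes of 20 to 25 larvae from its own clutch, only part of which was genotyped. From 10000 to 25000 sorted cells were collected per library, and 300 pg of RNA went through 14 cycles of cDNA and 15 of library amplification, with no molecular identifiers named in the labels. The genotypes had different parents, so line and genotype cannot be told apart.

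Potassium channels set the resting potential of a neuron and end its depolarizations. In a photoreceptor the outward potassium current of the inner segment closes the loop of the dark current, and its voltage-gated part shapes the response to light. Families differ in what opens the pore: voltage for the Kv, KCNQ and KCNH channels, calcium with or without voltage for the BK and SK channels, and neither for the inward rectifiers and the K2P leak channels. Auxiliary beta subunits bind the pore-forming subunits of Kv channels in the cytosol.

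The libraries held 18418834 to 20369266 reads in samd7-/- and 13435570 to 18911482 in WT, so that 1 read was worth between 0.747 and 1.33 normalized counts. The limit that 0 reads allow, taken as 3 reads, lay between 2.24 and 3.99 normalized counts and covers counting error only. On the first 2 principal components (29.0% and 22.8% of the variance) samd7-/- replicate 3 and WT replicate 2 stood apart from the others of their genotype. The targeted gene samd7 was at 23712 to 24733 normalized counts in samd7-/- and at 7075 to 8711 in WT, which does not check the allele, since the labels do not say how it affects the transcript. Markers of red cones were present in all 6 libraries, with thrb at 10042 to 11245 in samd7-/- and at 12472 to 16439 in WT. Of 8 genes listed as red-cone markers 5 fell and 1 rose in samd7-/-, and of 4 UV-cone markers 3 rose, by the test described below. The red-cone list is not specific to that cone type, since gnat2, pde6c, pde6h and gngt2b serve cones in general. Of all 9886 genes tested, 1.26% were called higher and 3.9% lower.

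The signal of the 14 potassium channel genes was small and lay mostly in a few of them. Together they took 0.0244% to 0.0328% of all normalized counts in samd7-/- and 0.0141% to 0.0199% in WT. As normalized counts the sum was 4304 ± 776 in samd7-/- and 3135 ± 482 in WT (SD, n = 3 each, as for all levels below), and here the genotypes overlapped. Only 6 genes, kcnq1, kcnh6a, kcnv2b, kcnma1a, kcnj11l and kcnab1a, reached 10 normalized counts in all 6 libraries. Each of the other 8 was at 0 in 1 to 3 libraries. In bulk RNA, fewer cells of a type and less RNA per cell cannot be told apart. Transcript lengths were not used here, so levels are compared between libraries and not between genes.

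Across the 14 genes 1, kcnq1, passed the test over all genes (limma on log2(normalized counts + 1), Benjamini-Hochberg adjusted p under 0.05). That is 7.14% of them, beside 5.17% of all 9886 genes tested, so the share is close to the background. Over all genes tested 1.26% were called higher and 3.9% lower. Before adjustment 3 of the 14 genes had a p under 0.05, kcnq1, kcnma1a and kcnh6a, or 21.4% beside 19.1% of all genes tested. The genotypes did not overlap for kcnq1 and kcnma1a, 14.3% of the 14 genes, beside 24.5% of all genes tested. The log2 difference, samd7-/- minus WT, was positive for 7 of the genes and negative for 7, with a median of 0.20 beside 0.05 over all genes tested. The split is not firm, since the sign turned under other fits for kcnk18, kcnj13, kcnv2b, kcnn1a, kcnj2a and kcnk1a.

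**Figure D1:**
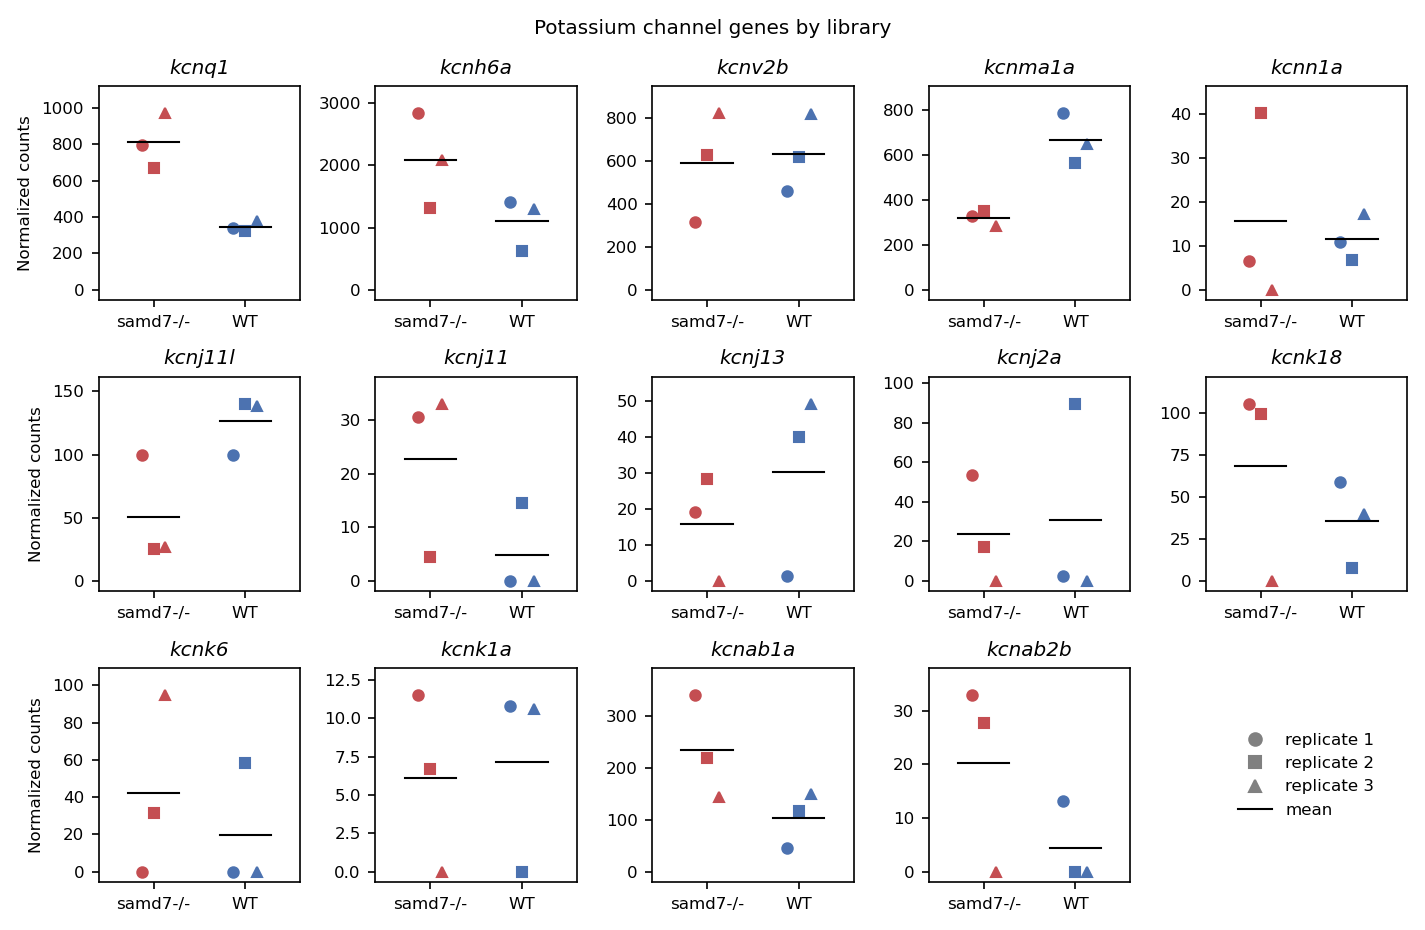
Normalized counts (vertical axis, linear, a scale per gene) of the 14 potassium channel genes in the 3 samd7-/- libraries (red, left) and the 3 WT libraries (blue, right), with replicate shown by symbol and the genotype mean as a line. The genotypes are separate for kcnq1 and kcnma1a, and the points reach 0 in 8 of the panels.

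Of the voltage-gated channels, kcnq1 rose. This gene encodes a channel of the KCNQ family that is best known in mammals from the heart, the inner ear and epithelia, and it is the older symbol of kcnq1.1 in RefSeq. It had 793, 670.1 and 974 normalized counts in samd7-/- replicates 1 to 3, against 340.4, 324 and 377 in WT replicates 1 to 3. Every samd7-/- library lay above every WT library, and the WT libraries were close to each other. The means were 812 ± 153 in samd7-/- and 347 ± 27.1 in WT, a ratio of 2.34. The log2 change was 1.21 (SE 0.31, 95% interval 0.54 to 1.88, limma adjusted p = 0.0380). Between 897 and 1117 reads stood behind the samd7-/- values and between 283 and 332 behind those of WT. The call was lost when any 1 of the 6 libraries was left out: the adjusted p was 0.0611 without samd7-/- replicate 2, 0.0676 without WT replicate 3, 0.0941 without WT replicate 1, 0.102 without samd7-/- replicate 3, and 0.115 without samd7-/- replicate 1 or WT replicate 2. It was also lost with no filter (0.0534), without the trend and robust options (0.160), with the replicate block (0.0602) and without both libraries that stood apart (0.191). The log2 difference itself was 1.07 or more in each fit that left out 1 library. Count models on the recovered reads also called kcnq1, edgeR with an adjusted p of 0.0408 and DESeq2 with 0.00420, where they called 3.83% and 8.8% of all genes tested. The authors' deposited table lists a log2 fold change of 1.23 with an adjusted p of 0.00306.

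Summed markers of several other eye cells, though not of all, were higher in the same libraries as kcnq1. The calls of markers below stand beside 1.26% of all genes tested called higher and 3.9% called lower. The summed level of 7 horizontal cell markers was 9513 to 11904 normalized counts in samd7-/- and 5187 to 7176 in WT, with 2 of 7 called higher. The horizontal cell marker ptf1a was level between the genotypes (log2 difference -0.06). For amacrine cells it was 25117 to 29499 in samd7-/- and 17039 to 23535 in WT, with 4 of 9 tested markers called higher. The amacrine markers slc32a1, slc6a9 and chata went the other way, with lower means in samd7-/- than in WT. Neither slc32a1 nor slc6a9 was called, and chata was under the filter and not tested. Among 7 Müller glia markers 1 was called higher, and the sums were 49729 to 80915 in samd7-/- and 31989 to 41548 in WT. The called marker, glula, had the highest level of the list, with means of 32153 in samd7-/- and 15424 in WT. The glia marker apoeb was level (log2 difference 0.04), and that of gfap was negative (-0.59). Among 7 markers of dividing cells 2 were called higher, with sums of 15626 to 15766 in samd7-/- and 8246 to 10905 in WT. None of the markers of these 4 lists that were matched was at 0 in all libraries. Ganglion cell markers summed to 976 to 1370.1 in samd7-/- and to 491 to 879 in WT, with 0 of 8 called and gap43 at 0 in all libraries. Of these, pou4f3 had a negative log2 difference (-1.03) and isl2b was level (0.01). UV-cone markers summed to 1407810 to 2162920 in samd7-/- and to 11630 to 56582 in WT, with 3 of 4 called higher and none at 0 in all libraries. For rod, bipolar, vascular and immune markers the sums overlapped between the genotypes, with 0 called in each list and the vascular marker pdgfrb at 0 in all libraries. In bulk RNA, markers from other cells among those sorted and markers expressed in the labelled cones themselves cannot be told apart. The part of either in the level of kcnq1 was not tested.

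The KCNH channel kcnh6a, which carries a repolarizing current in the zebrafish heart, had higher normalized counts in 2 of the samd7-/- libraries than in any WT library, but the genotypes overlapped. Its values were 2849, 1310.3 and 2082 normalized counts in samd7-/- replicates 1 to 3, against 1406, 623 and 1305 in WT replicates 1 to 3. Replicate 2 was the lowest library within each genotype. The means were 2080.3 ± 769 in samd7-/- and 1111 ± 426 in WT, and the log2 difference of 0.92 (SE 0.34, 95% interval 0.19 to 1.65) was not called (limma adjusted p = 0.150). With the replicate number as a block kcnh6a was called (limma adjusted p = 0.0412), although same-numbered libraries showed no pairing over all genes tested. Its size hung on the library used, with 0.55 without WT replicate 2, 0.66 without samd7-/- replicate 1 and 1.22 without samd7-/- replicate 2, and it was 0.51 without both libraries that stood apart.

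For the voltage-gated Kv gene kcnv2b no difference was called. In mammals its counterpart is expressed in photoreceptors and encodes Kv8.2, a subunit that forms no channel alone and joins Kv2 subunits in the inner segment, and mutations in humans cause a cone dystrophy. It had 315, 628 and 827 normalized counts in samd7-/- replicates 1 to 3, against 463, 622 and 823 in WT replicates 1 to 3. The genotypes covered nearly the same range, and the means were 590.1 ± 259 in samd7-/- and 636 ± 180.2 in WT. The log2 difference was -0.18 (SE 0.38, limma adjusted p = 0.857), and its 95% interval ran from -1.003 to 0.65. The sign turned under library-total scaling (0.05), without samd7-/- replicate 1 (0.22) and without WT replicate 3 (0.03).

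**Figure D2:**
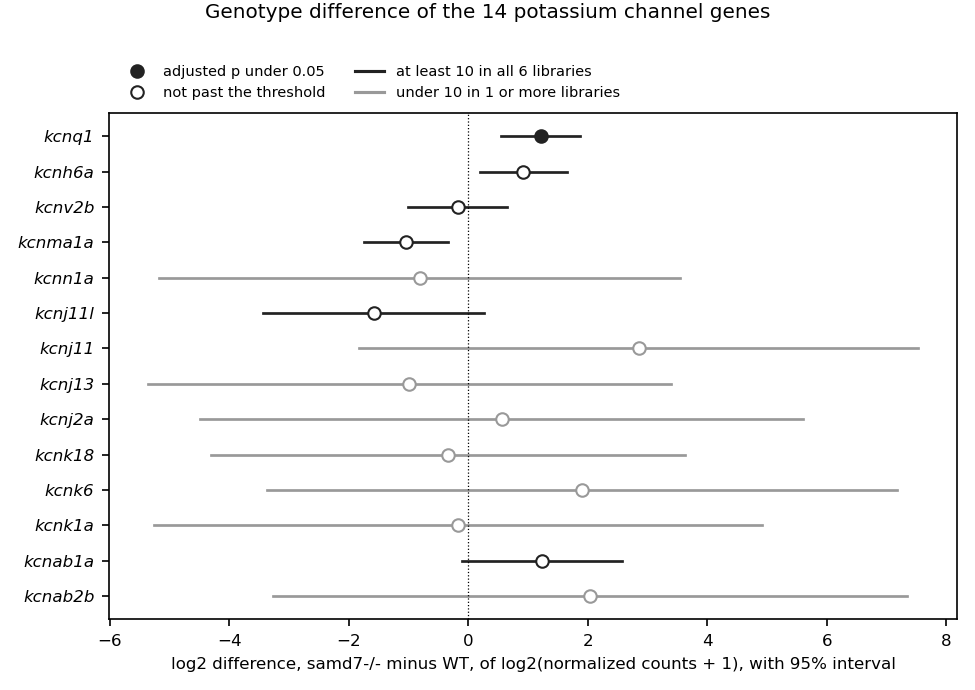
Difference between genotypes (horizontal axis, samd7-/- minus WT, in log2 of normalized counts plus 1) for each of the 14 genes, with the 95% interval of the limma fit as a line. The interval of kcnq1 runs from 0.54 to 1.88 and its point is filled, while the 8 genes in grey, which were under 10 in 1 or more libraries, have intervals several log2 units wide.

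Among the calcium-activated channels, kcnma1a was lower in every samd7-/- library than in any WT library without passing the test. It encodes the pore of the BK channel, which opens with calcium and depolarization together. It had 329, 351 and 283 normalized counts in samd7-/- replicates 1 to 3, against 788, 565 and 647 in WT replicates 1 to 3. The highest samd7-/- library thus lay well under the lowest WT library. The means were 321 ± 34.6 in samd7-/- and 666 ± 113 in WT, a ratio of 0.482, and the log2 difference was -1.04 (SE 0.33, 95% interval -1.74 to -0.34). The limma p was 0.00656 before adjustment and 0.0893 after it. DESeq2 on the recovered reads called kcnma1a (adjusted p = 0.0297) and edgeR did not (adjusted p = 0.0865). The authors' deposited table lists -1.05 with an adjusted p of 0.0254. The size was -0.81 with scaling by library totals, which moved the median of all genes by 0.23, and between -1.16 and -0.92 with 1 library left out. Summed markers of the red-cone list, which also holds genes of cones in general, were lower in the same libraries. The sums were 956434 to 1731820 in samd7-/- and 3554620 to 3737080 in WT, with none of the markers at 0 in all libraries. Of the 8 markers 5 were called lower, opn1lw2, arr3a, gnat2, pde6c and pde6h, beside 3.9% of all genes tested. The red-cone marker opn1lw1 was called higher (log2 change 3.29, limma adjusted p = 0.0459), and thrb and gngt2b were not called. The summed lens and cornea markers were 2681 to 6556 in samd7-/- and 16611 to 27379 in WT, with kera called lower, 1 of 5 tested, and none at 0 in all libraries. Without kera, a marker of the cornea, the sums overlapped, at 2479 to 5440 in samd7-/- and 1412 to 15598 in WT. Their part in the level of kcnma1a was not tested.

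The values of kcnq1 and kcnma1a can be set against each other within a library, where the scaling between libraries cancels. The ratio of kcnq1 to kcnma1a was 2.41, 1.91 and 3.44 in samd7-/- replicates 1 to 3, against 0.432, 0.573 and 0.582 in WT replicates 1 to 3. The pair was chosen after its values were seen, so the ratio is given with no test.

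The SK channel gene kcnn1a, the other calcium-activated member, was near the detection limit. It had 6.61, 40.3 and 0 normalized counts in samd7-/- replicates 1 to 3, against 10.8, 6.83 and 17.3 in WT replicates 1 to 3, from 54 reads at most. The single high library was samd7-/- replicate 2 (adjusted p = 0.879).

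Of the 4 inward rectifiers none passed the test. The pair kcnj11l and kcnj11 both have Kir6.2 among their RefSeq synonyms, the pore of the ATP-sensitive potassium channel that couples metabolism to voltage in the mammalian pancreas. The labels do not say how reads shared by similar genes were handled, so the split between the copies is uncertain. For kcnj11l the values were 99.9, 25.4 and 27.0 normalized counts in samd7-/- replicates 1 to 3, against 99.8, 140.4 and 138 in WT replicates 1 to 3. The genotypes met at their edges, since samd7-/- replicate 1 was level with WT replicate 1, and the other samd7-/- libraries were lower than all of WT. The log2 difference was -1.58 (SE 0.86, 95% interval -3.43 to 0.27, limma adjusted p = 0.356), and it was -2.21 without samd7-/- replicate 1. For kcnj11 the values were 30.5, 4.48 and 33.1 in samd7-/- replicates 1 to 3, against 0, 14.6 and 0 in WT replicates 1 to 3. They came from 37, 6 and 38 reads in samd7-/- and from 15 reads in the 1 WT library that had any (adjusted p = 0.534). The partner subunit abcc8, known in mammals as the sulfonylurea receptor of that channel, was at 355, 71.7 and 70.6 in samd7-/- replicates 1 to 3, against 142, 92.6 and 54.6 in WT replicates 1 to 3, and was not called either (adjusted p = 0.820), while abcc9 was at 0 in all libraries.

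The inward rectifier kcnj13 encodes Kir7.1, a channel of the retinal pigment epithelium in mammals and of pigment patterning in zebrafish. It had 19.0, 28.4 and 0 normalized counts in samd7-/- replicates 1 to 3, against 1.20, 40.0 and 49.3 in WT replicates 1 to 3, and the genotypes overlapped (adjusted p = 0.850). The 6 pigment epithelium markers summed to 199 to 544 in samd7-/- and to 80.0 to 589.7 in WT, with none at 0 in all libraries. Of the 5 tested 0 were called, beside 5.17% of all genes tested. For kcnj2a, a strong inward rectifier of the Kir2 type, the values were 53.7, 17.2 and 0 in samd7-/- replicates 1 to 3, against 2.41, 89.7 and 0 in WT replicates 1 to 3. The highest library of kcnj2a was WT replicate 2, and replicate 3 had no read in either genotype (adjusted p = 0.931).

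The 3 K2P leak channel genes, which give background potassium current, each had no read in at least 1 library. TRESK, the product of kcnk18, is known in mammals from sensory neurons, and kcnk18 had 106, 99.4 and 0 normalized counts in samd7-/- replicates 1 to 3, against 58.9, 7.80 and 39.9 in WT replicates 1 to 3. Here 2 samd7-/- libraries were higher than any WT library and the third had no read, among 128, 133 and 0 reads. The log2 difference was -0.34 with all libraries and 1.89 without samd7-/- replicate 3 (adjusted p = 0.949 and 0.453). For kcnk6 the values were 0, 31.4 and 95.04 in samd7-/- replicates 1 to 3, against 0, 58.5 and 0 in WT replicates 1 to 3. The lowest of the set was kcnk1a, with 11.6, 6.72 and 0 in samd7-/- replicates 1 to 3, against 10.8, 0 and 10.6 in WT replicates 1 to 3. It lay just inside the filter, its third-highest library being at 10.6, and kcnk5b lay just outside with 7.99.

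Both auxiliary genes encode cytosolic beta subunits of Kv1 channels, and no call was made for either. For kcnab1a the values were 340.2, 219 and 143 normalized counts in samd7-/- replicates 1 to 3, against 45.7, 117 and 149 in WT replicates 1 to 3. The means were 234 ± 99.5 in samd7-/- and 104 ± 52.9 in WT, with samd7-/- replicate 3 under the highest WT library. The log2 difference was 1.24 (SE 0.63, 95% interval -0.11 to 2.58, limma adjusted p = 0.309), and it was 0.73 without WT replicate 1. For kcnab2b the values were 33.0, 27.6 and 0 in samd7-/- replicates 1 to 3, against 13.2, 0 and 0 in WT replicates 1 to 3.

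The 8 genes with zeros were measured with little precision. Their standard errors ran from 1.85 to 2.47 on the log2 scale, against 0.31 to 0.86 for the 6 genes present throughout, and their adjusted p from 0.534 to 0.980. For kcnj11 the ratio of means was 4.66 and did not pass the test. Libraries differed in how many of the 14 genes were at 0, with 1, 0 and 6 genes in samd7-/- replicates 1 to 3, against 2, 2 and 4 in WT replicates 1 to 3. Over all genes tested the share at 0 was 2.79%, 1.84% and 5.97% in samd7-/- replicates 1 to 3, against 2.42%, 5.88% and 5.08% in WT replicates 1 to 3. The library with the most potassium channel zeros, samd7-/- replicate 3, also had the largest share of zeros among all genes tested, and it held the most reads. In WT replicate 2 that share was nearly as large, with 2 of the 14 genes at 0. The cause of the zeros was not tested.

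The 18 rows with reads that stayed under the filter never exceeded 52 reads or 45.3 normalized counts in a library. They included the Kv genes kcnc1a, kcnc2, kcnc3a, kcnc4, kcnd3, kcng1 and kcns3a, the KCNH genes kcnh1a, kcnh2a and kcnh5a, the leak channel genes kcnk1b, kcnk2b, kcnk3a, kcnk5a and kcnk5b, and kcnq2a, kcnj1b and kcnip3a. Of these rows 6 had reads only in samd7-/-, 3 only in WT and 9 in both. The same split was not counted over all genes under the filter, so it is not read as a genotype difference. A single library, samd7-/- replicate 2, had reads in 13 of them, against 4 and 3 in samd7-/- replicates 1 and 3 and 7, 4 and 3 in WT replicates 1 to 3. Among the rows with reads only in samd7-/-, kcnc3a, kcnh5a, kcnq2a and kcns3a had them in replicate 2 alone. That library also had the most genes above 0 of all 6, at 11060. For kcnk5a there were 0, 32 and 15 reads in samd7-/- replicates 1 to 3 and none in WT, and for kcnip3a, whose mammalian counterpart is a calcium-binding partner of Kv4 channels, none in samd7-/- and 5, 26 and 0 reads in WT replicates 1 to 3. With 6 of the 18 rows seen in 1 library alone, these genes were not tested.

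**Figure D3:**
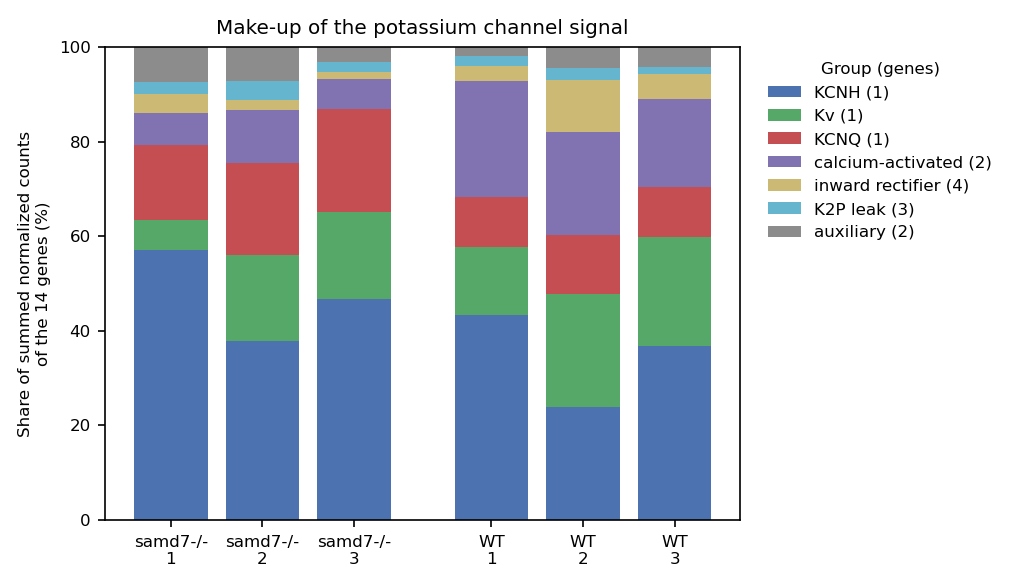
Share (vertical axis, percent) of each channel family in the summed normalized counts of the 14 genes, by library, with the number of genes per family in brackets. The KCNQ part is larger and the calcium-activated part smaller in each of the 3 samd7-/- libraries, on the left, than in any of the 3 WT libraries.

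The make-up of the summed potassium channel signal does not depend on scaling between libraries. It was built from the values given above, so the separation of the KCNQ and calcium-activated parts largely repeats that of kcnq1 and kcnma1a. The KCNQ share, all from kcnq1, was 19.0% ± 2.96 in samd7-/- and 11.2% ± 1.08 in WT, and the calcium-activated share, nearly all from kcnma1a, was 8.13% ± 2.76 in samd7-/- and 21.7% ± 2.99 in WT, with no overlap for either. The KCNH share, from kcnh6a, was 47.2% ± 9.64 in samd7-/- and 34.7% ± 9.91 in WT, the Kv share, from kcnv2b, was 14.3% ± 6.95 in samd7-/- and 20.4% ± 5.33 in WT, and both overlapped. Inward rectifiers held 2.53% ± 1.40 in samd7-/- and 6.46% ± 3.995 in WT, with 4.24% in WT when WT replicate 2 was left out. Leak channels held 2.82% ± 1.007 in samd7-/- and 2.04% ± 0.568 in WT, and auxiliary genes 5.94% ± 2.38 in samd7-/- and 3.499% ± 1.46 in WT. As the genes were chosen with results known, the shares are given with no test.

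The potassium gradient that these channels use is built by the sodium pump, the Na,K-ATPase. Of 11 subunit genes tested 3 rose and 1 fell, with a median log2 difference of -0.52 beside 0.05 over all genes tested. Of all genes tested 1.26% were called higher and 3.9% lower. Among the catalytic alpha subunits, atp1a1a.1 fell to 2717, 2931 and 3964 normalized counts in samd7-/- replicates 1 to 3, against 11205, 13134 and 10973 in WT replicates 1 to 3 (log2 change -1.89, SE 0.19, limma adjusted p = 5.74e-05). Its paralog atp1a1b rose to 1670, 2458 and 1665 in samd7-/- replicates 1 to 3, against 423, 636 and 789 in WT replicates 1 to 3 (log2 change 1.67, SE 0.28, adjusted p = 0.00352). In neither gene did the genotypes overlap. The alpha subunit atp1a3a, the neuronal form in mammals, was at 15250.2 ± 352 in samd7-/- and 12139 ± 1277 in WT with no overlap. It was not called (log2 difference 0.33, limma adjusted p = 0.264), but passed with scaling by library totals (0.0249).

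Of the beta subunits, which carry the pump to the membrane, 2 rose and none was called lower. The gene atp1b1a rose to 21180.0, 17338 and 15485 in samd7-/- replicates 1 to 3, against 10675, 6964 and 9844 in WT replicates 1 to 3 (log2 change 0.99, SE 0.19, adjusted p = 0.00922), and its call was lost without samd7-/- replicate 1 (adjusted p = 0.0628) or WT replicate 2 (adjusted p = 0.0713). The gene atp1b3a rose to 1025, 1236 and 825 in samd7-/- replicates 1 to 3, against 511, 371 and 549.8 in WT replicates 1 to 3 (log2 change 1.11, SE 0.30, adjusted p = 0.0466). The call was lost with edgeR (adjusted p = 0.0554), with no filter (0.0677) and with the replicate block (0.0783). Leaving out any library but samd7-/- replicate 3 also ended it, with an adjusted p of 0.138 and 0.176 without samd7-/- replicates 1 and 2 and of 0.0927, 0.170 and 0.0662 without WT replicates 1 to 3. The beta subunit with the most reads, atp1b2b, was at 14458 ± 1688 in samd7-/- and 20761 ± 3007 in WT with no overlap and was not called (log2 difference -0.52, adjusted p = 0.101). It passed with DESeq2 (adjusted p = 0.0194) and without samd7-/- replicate 3 (0.0279), and not with edgeR (0.146). The beta subunit atp1b2a was also lower in every samd7-/- library than in any WT library, without a call (log2 difference -0.54, limma adjusted p = 0.119). For atp1b1b (-0.54, 0.724) and atp1b3b (0.42, 0.702) the genotypes overlapped. Over the 15 matched subunits the sum was 64690.3 to 68894 in samd7-/- and 64952 to 83222 in WT, so the summed levels overlapped.

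Of the cation-chloride cotransporters, which move potassium together with chloride, 2 could be tested and 0 passed with limma, edgeR or DESeq2. The gene slc12a2 was at 2429 ± 217 in samd7-/- and 1699 ± 271 in WT with no overlap (log2 difference 0.52, limma p before adjustment 0.0233, adjusted p = 0.174). It was the 1 of the 2 under 0.05 before adjustment, beside 19.1% of all genes tested. The other, slc12a9, was at 66.0 ± 52.9 in samd7-/- and 32.5 ± 21.6 in WT (adjusted p = 0.754). Of 27 genes listed whose proteins bind potassium or HCN channels, 12 were matched and 10 tested. Of the 10, 0 were called higher and 2 lower, with a median log2 difference of -0.03. Beside these, 1.26% of all genes tested were called higher and 3.9% lower. Among those not called, cntnap2a was higher in every samd7-/- library than in any WT library (log2 difference 1.64, limma adjusted p = 0.186), and vapa was lower (-0.90, 0.209). For cntnap2b the log2 difference was 1.44 (adjusted p = 0.217), with overlap. Both partner genes called lower encode synaptic scaffold proteins that bind Kv1 and Kir2 channels in mammals as well as other receptors. The gene dlg4b, the counterpart of PSD-95, fell to 1475, 1769 and 3328 in samd7-/- replicates 1 to 3, against 4771, 4401 and 5209 in WT replicates 1 to 3 (log2 change -1.22, SE 0.26, adjusted p = 0.0149). The gene dlg2 fell to 2271, 2996 and 2194 in samd7-/- replicates 1 to 3, against 4253, 4012 and 4230.4 in WT replicates 1 to 3 (log2 change -0.76, SE 0.19, adjusted p = 0.0341). Under edgeR neither passed (adjusted p = 0.0525 for dlg4b and 0.0510 for dlg2). The call of dlg4b was lost without samd7-/- replicate 1 (adjusted p = 0.0747), without samd7-/- replicate 2 (0.0529) and without WT replicates 1 and 3 (0.0591 and 0.0616). That of dlg2 was lost without samd7-/- replicates 1 and 3 (0.133 and 0.0552) and without WT replicates 1 to 3 (0.106, 0.109 and 0.0980), and with scaling by library totals (0.167).

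**Figure D4:**
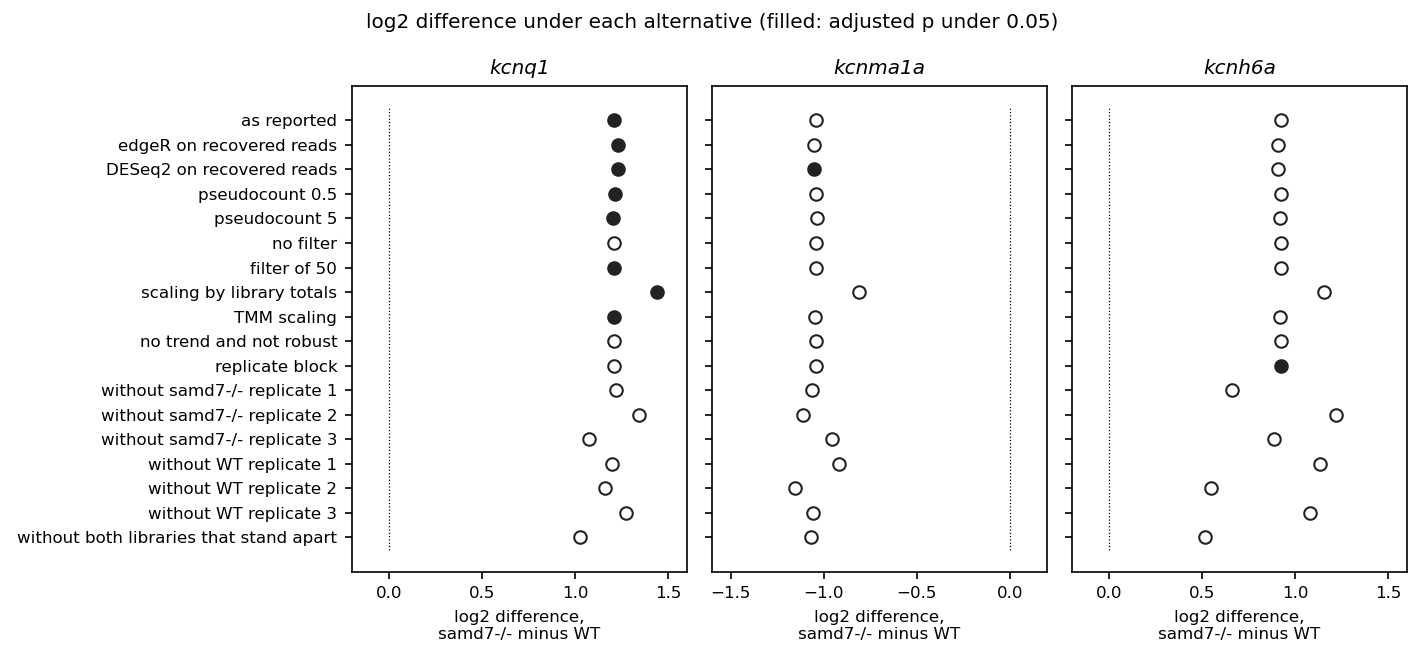
The log2 difference (horizontal axis, samd7-/- minus WT) of kcnq1, kcnma1a and kcnh6a as reported and under 17 alternatives (rows), where a filled point has an adjusted p under 0.05. The sign is the same in every row for these 3 genes, and the filled points are 7 of the 17 alternatives for kcnq1 and 1 of 17 for kcnma1a and for kcnh6a.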

How the data were processed

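The authors deposited 1 table, which holds a signal column for each library beside genotype means, log2 fold changes and adjusted p-values. The submitters' processing notes name the build danRer10 and, without roles, R 4.1.3, DESeq2 1.34.0, HTSeq 0.9.1, STAR 2.7.2b and Trim Galore 0.6.1, and no annotation or strand setting is stated. The deposited signal values are normalized counts, that is reads divided by a size factor, as the values themselves show: 100% of those above 0 equal a whole number of reads to within 0.01 read. The deposited log2 fold changes and deposited adjusted p-values are quoted only as the authors'.

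Values were fitted as log2(value + 1) with limma 3.58.1 in R 4.3.3, with genotype as the only term, a mean-variance trend, the robust option, and Benjamini-Hochberg adjustment over 9886 genes with 10 or more in 3 or more libraries. Of these 511 were called (125 higher, 386 lower). On recovered reads edgeR 4.0.16 called 379 and DESeq2 1.42.0 called 870. Log2 differences of low genes depend on the added 1 and can be larger or smaller than those of count models. For kcnj11 the value was 2.85 with limma against 2.17 with edgeR, and for kcnab2b 2.03 against 2.18. For kcnk18 the sign differed, with -0.34 against 0.95. The fits were tested on simulated data, with changes set only in genes of higher mean level. Changes in genes as low as those with zeros were not simulated. Levels are mean and SD over 3 clutches.

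The 14 genes, the companion and marker lists and the naming rule were chosen with earlier results of these data known. Named were genes called, the 12 with the highest means, those with known retinal roles and those whose genotypes did not overlap. In the companion lists these were the called genes and the 2 with the highest levels. Outside this rule kcnab2b, abcc8, abcc9, cntnap2a, cntnap2b, vapa, the 18 rows under the filter and single genes of the marker lists were named after their values were seen. Of the 14 symbols 13 matched a RefSeq symbol of another assembly (GRCz12tu), so no coordinates are given, and no sequences were used here.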

Additional observations from a re-analysis of the deposited data

How the results depend on the processing

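Over 17 alternatives the log2 differences of kcnq1, kcnma1a, kcnh6a, kcnab1a and kcnj11l kept their signs, as did those of kcnj11, kcnk6 and kcnab2b over the 16 that could be fitted. The number of the 14 genes called, 1 as reported, was 2 with DESeq2, 0 with no filter, 0 without the trend and robust options, 0 with any 1 library left out, and 0 without both libraries that stood apart, an alternative chosen after seeing the data. For kcnq1 the adjusted p was 0.0534 with no filter, 0.160 without trend and robust options and 0.191 without both libraries. Genes called in all were 870 with DESeq2, 27 without trend and robust options, 225 to 573 with 1 library left out and 294 without both libraries. Sodium pump genes called were 0 without trend and robust options and 2 to 5 with 1 library left out. Partner genes called were 0 with edgeR and without trend and robust options, 1 with no filter, library-total scaling, the replicate block or without both libraries, and 0 to 1 with 1 library left out. Signs turned only in genes that were not called. For kcnk18 the log2 difference was 0.95 with edgeR, 0.94 with DESeq2, 0.22 with a pseudocount of 5, 1.06 without both libraries and from -1.47 to 1.89 with 1 left out. For kcnn1a it was 0.43 with edgeR, 0.43 with DESeq2, 0.27 without both libraries and from -2.11 to 0.57 with 1 left out. For kcnj2a it was -0.38 with edgeR and with DESeq2 and from -0.82 to 2.44 with 1 left out. For kcnj13 it was 1.20 without both libraries and from -2.44 to 0.55 with 1 left out. For kcnv2b it was 0.0536 with library-total scaling and from -0.48 to 0.22 with 1 left out. For kcnk1a it was 0.0243 with library-total scaling and from -1.35 to 0.93 with 1 left out. The cause of these turns was not tested.

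Replicate numbers showed no pairing of the samples over all genes tested. Same-numbered libraries of the genotypes had correlations of their deviations between -0.034 and 0.046, against -0.051 to 0.040 for other pairs. Not every library correlated best with its own number. With the replicate block 431 genes and 1 of the 14 were called, kcnh6a in place of kcnq1 (adjusted p = 0.0412 and 0.0602). Library-total scaling gave 667 genes, 415 higher and 252 lower. Family shares per coding length were not run, since no transcript lengths were used here. None of the 8 genes with zeros had over 133 reads in a library.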
